A study of Homo sapiens with 4 samples.

Results

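The genes described here are direct transcriptional targets of the tumor suppressor p53, given by name as a list of 39 genes. Of these, 31 are among the 6828 genes of the deposited table and were found there by gene name. The table came from RNA-seq of A549 cells, a human lung adenocarcinoma line, harvested 72 h after infection with a lentivirus expressing control shRNA (shctrl) or shRNA against the long noncoding RNA USP2-AS1 (shUSP2-AS1), with 2 biological replicates per group. All 4 libraries thus came from cells carrying a lentiviral shRNA, from 1 cell line and 1 time point, and the methods do not say which of the study's USP2-AS1 shRNAs was used. The table holds only genes with an adjusted p below 0.05 in the authors' own comparison, so a listed p53 target had already differed between the groups, and for the other members the table gives no level. These were MDM4, PLK2, CCNG2, FBXW7, SESN2, POLH, KITLG and ZNF79.

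p53 is a transcription factor that is kept scarce in unstressed cells by the ubiquitin ligase MDM2, and that accumulates and becomes active after DNA damage, oncogene activity or nucleolar stress. It binds as a tetramer to abutting copies of a short motif and raises the transcription of genes that halt the cell cycle, repair DNA, adjust metabolism, sensitize cells to death and, in a negative feedback loop, switch p53 off again. Much of this control acts on the p53 protein, which RNA-seq does not measure. The RNA of its target genes is a common readout of the pathway in epithelial cells.

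The p53 consensus site, 2 abutting copies of the 10-base p53 motif, was searched within 5000 bases of each gene start in hg38, with the C and G of each core fixed and up to 1 mismatch elsewhere. The site reads alike on both strands. It was present at 7 of the 31 listed members (22.6%) and at 79 of 6727 listed genes (1.17%). These 7 sequences are shown because they are the close matches to the p53 motif that lie near a gene whose RNA is described below. Each is written 5′ to 3′ on the strand of its gene, with the 2 cores (C, any 2 bases, G) in capitals.
ZMAT3: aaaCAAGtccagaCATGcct
EDA2R: gaaCATGcctggaCGTGtcc
CCNG1: gcaCAAGcccaggCTAGtcc
PERP: aggCAAGctccagCTTGttc
GDF15: agaCCTGcccggaCATGtcc
DDB2: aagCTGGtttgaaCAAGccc
GADD45A: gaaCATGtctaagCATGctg

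The ZMAT3 site, at chr3:179070188-179070207 on the minus strand, lies in intron 1, 2008 bases downstream of the gene start, and was the 1 member site with 0 mismatches (3.23% of the listed members, against 0.164% of all listed genes). The EDA2R site (chrX:66638713-66638732, minus strand) and the CCNG1 site (chr5:163437926-163437945, plus strand) lie in intron 1 as well, 566 and 357 bases downstream of the start. The PERP site (chr6:138104070-138104089, minus strand) lies 3330 bases into the gene, also in intron 1. The GADD45A site (chr1:67686775-67686794, plus strand) lies in intron 3, 1574 bases downstream of the start. The DDB2 site (chr11:47214969-47214988, plus strand) overlaps exon 1, 504 bases downstream of the start, and the GDF15 site (chr19:18373947-18373966, plus strand) lies upstream of its gene, at position −784 from the start. With up to 2 mismatches, 14 members (45.2%) and 7.97% of all listed genes held a site. In the shorter RefSeq promoters of GRCh38.p14, from 250 bases before to 50 bases after a start, 1 of 50 member promoters (2%) held a site, that of DDB2, against 0.0541% of all promoters. The distances above are from the start of the deposited gene interval, and RefSeq starts, as for DDB2, can lie elsewhere. A match is a description of the letters in the window, not evidence of binding.

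As a check of the labels, USP2-AS1 (ENSG00000245248) was covered by 24 and 22 reads with shctrl and 2 and 7 with shUSP2-AS1, and its log2 fold change was −2.39 ± 0.56 (SE; adjusted p = 0.000597, limma with Benjamini-Hochberg adjustment over 6812 genes). The reads on listed genes ranged from 10772788 to 14120472 per library, and replicate libraries differed beyond counting error, with a chi-square of 3.75 (shctrl) and 3.84 (shUSP2-AS1) per degree of freedom. The epithelial keratins KRT7, KRT8, KRT18 and KRT19 were listed with levels per kb of transcript of 1488 to 14141 in shctrl, whereas EPCAM and CDH1 were not listed. The log2 fold changes of the 4 keratins were −0.49, −0.77, −1.05 and 0.75, in that order. Of 7 markers of immune, endothelial and mesenchymal cells, COL1A1 alone was listed. Its normalized read counts (reads divided by the size factor of the library) were 261 and 293 with shctrl against 530.0 and 618 with shUSP2-AS1. A marker is listed only if it passed the authors' test of the contrast, so a marker that was not listed may still be expressed. The part of these markers in the results was not tested. Fewer cells of a kind and less RNA per cell cannot be told apart in such bulk libraries.

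USP2-AS1 knockdown went along with higher RNA of most listed p53 target genes. At an adjusted p below 0.05, 28 of the 31 rose and 3 fell, where 50.6% of all tested genes rose and 49.4% fell. An additional limit of 1 on the absolute log2 fold change, that is a 2-fold change, was passed upward by 11 members (35.5%, against 16.1% of all tested genes) and downward by 1 member (13.5% of all tested genes). Genes past both limits are referred to as called. The median log2 fold change of the 31 members was 0.76, with a range from −1.59 for TRIAP1 to 1.93 for FAS, against 0.19 over all tested genes. The comparison values depend on the settings: RLE scaling computed from the listed genes called 929 genes higher and 1143 lower, against 1098 and 922, and 10 members higher and 1 lower. The median over all tested genes was 0.067 under RLE scaling and −0.16 where at least 10 reads in every library were required. The libraries of the groups did not overlap for any of the 31, which held for 6811 of the 6812 tested genes (100% to 3 digits). Summed over the members, the normalized read counts were 43428 and 42185 with shctrl and 73208 and 73565 with shUSP2-AS1, or 0.365% and 0.356% against 0.594% and 0.592% of the reads on listed genes. Every count in this paragraph is over genes that had passed the authors' test of the same contrast, so it describes the listed members and was given no test of its own.

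**Figure D1:**
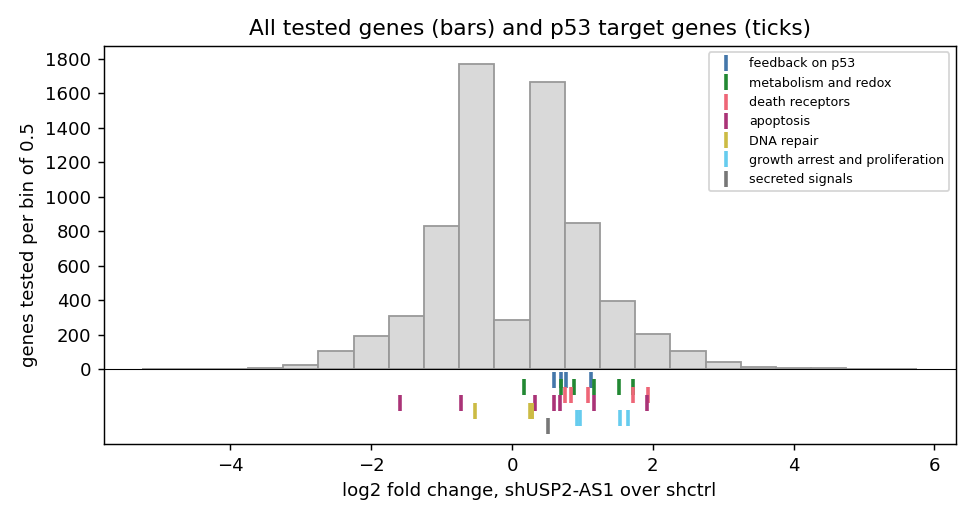
Log2 fold change, shUSP2-AS1 over shctrl, of the 6812 tested genes (grey bars, number of genes per bin of 0.5) and of the 31 listed p53 target genes (ticks, 1 row and color per role). The bar around 0 is low because genes without a significant change are not in the table, and 28 of the 31 ticks lie to the right of 0.

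The roles had unequal medians. The 5 genes of the death receptor group had a median log2 fold change of 1.08, which is the value of EDA2R. This group includes the decoy receptor TNFRSF10C (1.72). FAS and the TRAIL death receptors TNFRSF10B and TNFRSF10A had 1.93, 0.84 and 0.76. The 6 metabolic targets had a median of 1.02, the 4 feedback genes 0.73 and the 4 DNA repair genes 0.27. Called members numbered 3 of 5 in the death receptor group (FAS, EDA2R and TNFRSF10C) and 3 of 6 metabolic targets. They numbered 1 of 4 feedback genes and 0 of 4 repair genes. Among all tested genes, 16.1% were called higher and 13.5% lower. The highest repair gene, DDB2 with 0.28, was below the lowest feedback gene (0.60, RPS27L) and below the lowest death receptor (0.76, TNFRSF10A), whereas the metabolic targets spanned 0.17 to 1.72. The medians are over listed members only, and members not in the table have no value here. Genes of a role are not replicates of it, and the difference between roles was not tested.

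**Figure D2:**
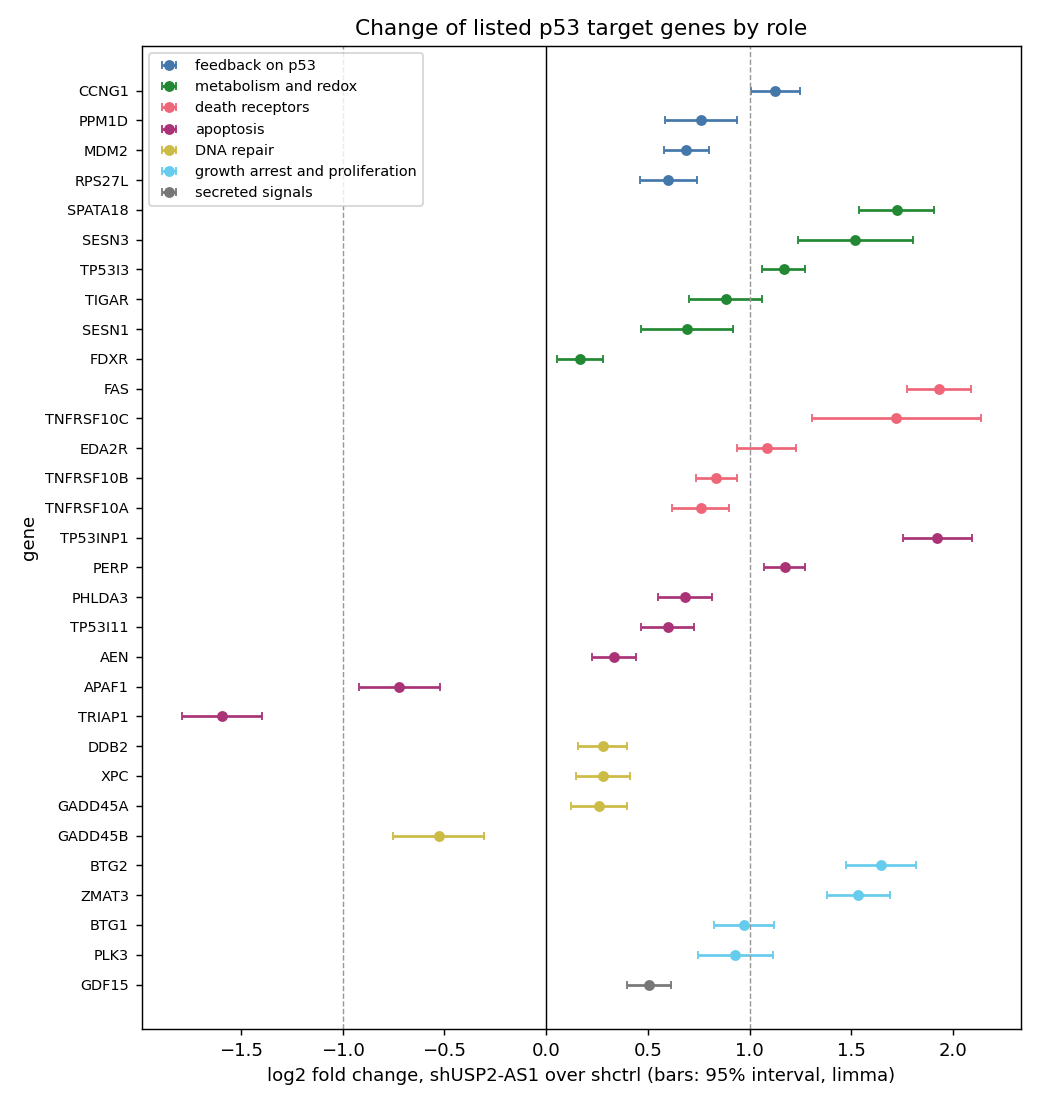
Log2 fold change, shUSP2-AS1 over shctrl, of each listed p53 target gene (points) with its 95% interval from limma (bars), grouped and colored by role. Dashed lines mark −1 and 1. The 4 repair genes sit between −0.53 and 0.28, the 5 genes of the death receptor group between 0.76 and 1.93, and TRIAP1 is the 1 member left of −1.

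The 4 listed genes that feed back on p53 all rose. CCNG1 (chromosome 5, 163437569 to 163446151 in hg38), which encodes cyclin G1, a partner of the phosphatase PP2A that acts on MDM2, rose most, from normalized read counts of 1493 and 1419.9 to 3100.1 and 3259 (log2 fold change 1.13 ± 0.057 SE, 95% interval 1.01 to 1.25, adjusted p = 6.45e-12). Both knockdown libraries held more than 2 times the CCNG1 level of either control library. MDM2, the ubiquitin ligase that marks p53 for degradation, had normalized read counts of 2243 and 2280.3 with shctrl against 3735 and 3561 with shUSP2-AS1, a log2 fold change of 0.69 ± 0.053 (adjusted p = 1.60e-09). PPM1D, the WIP1 phosphatase that removes activating phosphates from p53 and its kinases, went from 412 and 451 to 726 and 737, a log2 fold change of 0.76 ± 0.084 (adjusted p = 1.83e-07). The RPS27L level, from a ribosomal protein paralog that binds MDM2, was 3313 and 2801 with shctrl against 4466 and 4781 with shUSP2-AS1. Its log2 fold change was 0.60 ± 0.067 (adjusted p = 1.95e-07), and the 2 shctrl libraries of RPS27L lay further apart than those of CCNG1 or MDM2. The last feedback gene, MDM4, was not listed.

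All 6 listed metabolic and redox targets rose, by amounts that differed widely. SPATA18 (chromosome 4, 52051304 to 52097299), also known as MIEAP, which acts in mitochondrial quality control, went from normalized read counts of 301 and 301 to 1063 and 933, a log2 fold change of 1.72 ± 0.088 (95% interval 1.54 to 1.91, adjusted p = 7.67e-12). TP53I3, a quinone oxidoreductase linked to reactive oxygen species, was the most abundant of the 6 per kb of transcript (1395 in shctrl). Its normalized read counts were 3255 and 3194 with shctrl against 7081 and 7403 with shUSP2-AS1 (log2 fold change 1.17 ± 0.050, adjusted p = 6.78e-13). In both genes the knockdown libraries lay well clear of the controls. TIGAR, a fructose bisphosphatase that lowers glycolytic flux, rose without reaching the 2-fold limit, from 364 and 360.5 to 669.9 and 667 (log2 fold change 0.88 ± 0.085, adjusted p = 3.43e-08), and 18.1% of its exon bases in GENCODE release 44 are also annotated to another gene on its strand.

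The sestrins, stress-induced inhibitors of mTORC1 signaling, were unequal. SESN3 had normalized read counts of 102 and 104 with shctrl against 307 and 289.7 with shUSP2-AS1, and SESN1 of 239 and 227 with shctrl against 381 and 373 with shUSP2-AS1. The log2 fold changes were 1.52 ± 0.13 for SESN3 (adjusted p = 9.77e-09) and 0.69 ± 0.11 for SESN1 (adjusted p = 9.38e-06), and SESN2 was not listed. SESN1 remained the more abundant of the pair per kb, with log2 ratios of SESN1 to SESN3 of 2.27 and 2.17 with shctrl and 1.36 and 1.41 with shUSP2-AS1. An exact two-sided permutation test of 2 against 2 libraries cannot give a p below 0.333, which was the p of this and of each other ratio of a pair of genes given here. FDXR, the mitochondrial ferredoxin reductase, changed least of the metabolic targets. Its normalized read counts were 2676 and 2791 with shctrl against 3020.1 and 3118 with shUSP2-AS1, a log2 fold change of 0.17 ± 0.053 (95% interval 0.055 to 0.28, adjusted p = 0.00578). With RLE scaling, which moved the median over all tested genes by −0.12, FDXR had a log2 fold change of 0.049 and no longer passed (adjusted p = 0.36).

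The death receptor group holds FAS and the TRAIL receptors TNFRSF10A and TNFRSF10B, which start apoptosis on binding their ligands, together with EDA2R and the decoy TNFRSF10C, and all 5 genes rose. FAS and TP53INP1 had nearly the same log2 fold change, the highest of the members, and their order turned without shctrl replicate 2 (FAS 1.94, TP53INP1 2.01) and without shUSP2-AS1 replicate 1 (1.93 and 1.95). FAS (ENSG00000026103, chromosome 10, 88990531 to 89017059 in hg38) had normalized read counts of 353 and 357 with shctrl against 1357 and 1356 with shUSP2-AS1. The replicates of each group were nearly equal, and the knockdown level was 3.82 times the control level (log2 fold change 1.93 ± 0.075, 95% interval 1.77 to 2.09, adjusted p = 2.18e-13). EDA2R, a receptor for an ectodysplasin isoform, went from 644 and 642 to 1408 and 1318 (log2 fold change 1.08 ± 0.069, adjusted p = 1.52e-10), and under RLE scaling its log2 fold change of 0.96 fell short of the 2-fold limit. FAS shares 387 of its 29219 annotated exon bases (1.32%) with ACTA2 on the opposite strand. The deposited gene length of FAS is only 5578 bases, so the shared part of the counted bases may be larger than 1.32%. ACTA2 rose too, from 117 and 148 to 457 and 459.6 (log2 fold change 1.79, adjusted p = 6.73e-10). FAS also shares 1899 exon bases (6.5%) with a long noncoding RNA on the opposite strand that was not listed. The library protocol describes no strand marking, and the part of reads from these genes in the FAS values was not tested.

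The TRAIL receptors lie side by side on chromosome 8 in hg38, with TNFRSF10B at 23020133 to 23069031, TNFRSF10C at 23102921 to 23117445, TNFRSF10D at 23135588 to 23164027 and TNFRSF10A at 23190452 to 23225102. TNFRSF10B (DR5), a receptor that signals death, was the most abundant of the 4 in shctrl per kb (914), followed by the decoy TNFRSF10D (335), the death-signaling TNFRSF10A (DR4, 254) and the decoy TNFRSF10C (34.2), which lacks a death domain. The replicates of neighbors in this order did not overlap. TNFRSF10B had normalized read counts of 4604 and 4549.7 with shctrl against 8143 and 8209 with shUSP2-AS1, and TNFRSF10A of 754 and 732 with shctrl against 1251 and 1264 with shUSP2-AS1. Their log2 fold changes, 0.84 ± 0.047 (adjusted p = 3.06e-11) and 0.76 ± 0.067 (adjusted p = 1.04e-08), were close, and the log2 ratio of TNFRSF10A to TNFRSF10B per kb stayed between −1.84 and −1.93 in the 4 libraries.

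The decoy receptors had higher log2 fold changes than the signaling receptors of the same cluster. TNFRSF10C normalized read counts were 61.8 and 43.96 with shctrl against 163 and 186 with shUSP2-AS1 (log2 fold change 1.72 ± 0.20, 95% interval 1.30 to 2.13, adjusted p = 2.84e-07). This rests on 64 and 40 reads with shctrl and 155 and 211 with shUSP2-AS1, and its log2 fold change was 1.48 to 1.96 with 1 library left out. TNFRSF10D, a p53 target outside the 39 genes, went from 1269 and 1100.1 to 4411 and 4616 (log2 fold change 1.93 ± 0.065, adjusted p = 3.88e-14). TNFRSF10C and TNFRSF10D are close paralogs, so reads may have been split between them. Of the TNFRSF10C exon bases, 16.9% are also annotated to another gene on the same strand and 16.1% to a further, protein-coding one. Whether these are the same bases was not tested. The log2 ratio of TNFRSF10C to TNFRSF10B per kb was −4.52 and −5.00 with shctrl and −3.95 and −3.77 with shUSP2-AS1. For FAS relative to TNFRSF10B it was −3.86 and −3.83 with shctrl and −2.74 and −2.75 with shUSP2-AS1.

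**Figure D3:**
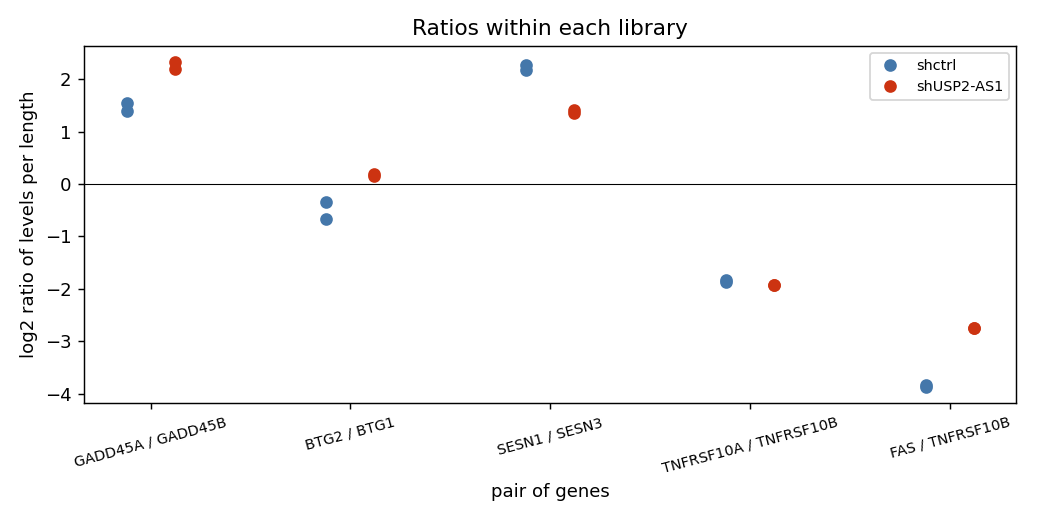
Log2 ratio of the levels per kb of transcript of pairs of genes, each point 1 library, shctrl in blue and shUSP2-AS1 in red. SESN1 to SESN3 is 2.27 and 2.17 with shctrl and 1.36 and 1.41 with shUSP2-AS1, whereas TNFRSF10A to TNFRSF10B stays between −1.84 and −1.93.

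The apoptosis effectors and regulators held TP53INP1, close to FAS in log2 fold change, and 2 of the 3 members that fell. TP53INP1 (chromosome 8, 94925972 to 94949378), a nuclear body protein that promotes p53 phosphorylation and autophagy, had normalized read counts of 346 and 391 with shctrl against 1370.2 and 1424 with shUSP2-AS1 (log2 fold change 1.92 ± 0.080, 95% interval 1.75 to 2.09, adjusted p = 5.67e-13). PERP, a tetraspan membrane protein of desmosomes and apoptosis, went from 4475 and 4423 to 10069.9 and 9974 (log2 fold change 1.17 ± 0.047, adjusted p = 3.54e-13). Both knockdown libraries of these genes stood above 2 times the higher control library. Smaller rises were seen for PHLDA3, a pleckstrin homology protein that inhibits AKT, for TP53I11, and for AEN, a nuclease that takes part in apoptotic DNA breakdown. PHLDA3 went from 3036 and 2609 to 4491 and 4544 (log2 fold change 0.68 ± 0.062, adjusted p = 1.60e-08), and 18.4% of its exon bases are also annotated to a long noncoding RNA on its strand. TP53I11 had 1294 and 1278 with shctrl against 2024 and 1869 with shUSP2-AS1 (log2 fold change 0.60 ± 0.061, adjusted p = 7.18e-08). AEN changed least of the rising apoptosis genes, from 2910.4 and 2855 to 3611 and 3653 (log2 fold change 0.33 ± 0.051, adjusted p = 8.46e-06).

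TRIAP1 and APAF1 fell. TRIAP1 (ENSG00000170855, chromosome 12, 120443964 to 120446384) encodes a small mitochondrial protein that aids lipid transfer and, unlike the others of its role, counters apoptosis. Its normalized read counts were 961 and 821 with shctrl against 299.7 and 288 with shUSP2-AS1, so the knockdown level was 0.33 times that of the control (log2 fold change −1.59 ± 0.093, 95% interval −1.79 to −1.40, adjusted p = 4.67e-11). The groups lay far apart for TRIAP1, and it was the 1 member called lower. APAF1, the scaffold of the apoptosome that activates caspase-9, went from 533 and 509.9 to 326 and 306 (log2 fold change −0.72 ± 0.094, adjusted p = 1.46e-06). Of its exon bases, 9.67% overlap ANKS1B on the opposite strand, which rose (log2 fold change 1.47, adjusted p = 0.00016). ANKS1B had few reads over its whole length, 18 and 19 with shctrl and 51 and 63 with shUSP2-AS1. APAF1 had 552 and 464 with shctrl and 310 and 348 with shUSP2-AS1. Set against FAS per kb of transcript, APAF1 was at a similar level in shctrl, with log2 ratios of FAS to APAF1 of −0.12 and −0.04, and lower in shUSP2-AS1, with 2.53 and 2.62.

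Of the 4 listed DNA repair targets, DDB2, XPC and GADD45A changed by small amounts. All 4 passed the test, as did 6811 of the 6812 tested genes, since every listed gene had already passed the authors' test. DDB2, the damage sensor of global genome nucleotide excision repair, had normalized read counts of 1587 and 1608 with shctrl against 1909.7 and 1965 with shUSP2-AS1 (log2 fold change 0.28 ± 0.057, adjusted p = 0.000179). XPC, which recognizes damage in the same pathway, had 1101 and 1065 with shctrl against 1330.2 and 1296 with shUSP2-AS1 (log2 fold change 0.28 ± 0.063, adjusted p = 0.000456), and 24.6% of its exon bases overlap the antisense gene XPC-AS1. GADD45A, a stress sensor that interacts with PCNA and p38 signaling, had 979 and 1001 with shctrl against 1169 and 1203 with shUSP2-AS1 (log2 fold change 0.26 ± 0.065, adjusted p = 0.000959). The knockdown libraries of these 3 genes were all above the controls but close to them, with folds of 1.21, 1.21 and 1.198. GADD45B, a paralog better known as a target of NF-kappaB and TGF-beta signaling, fell, from 413 and 384 to 259.7 and 292 (log2 fold change −0.53 ± 0.11, 95% interval −0.75 to −0.30, adjusted p = 0.000152). The log2 ratio of GADD45A to GADD45B per kb thus went from 1.40 and 1.54 in shctrl to 2.32 and 2.19 in shUSP2-AS1. POLH, the translesion DNA polymerase eta, was not listed.

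The growth arrest genes had a median of 1.25 over the 4 of 7 that were listed, the highest of all roles with more than 1 listed member. The other 3 are not in the table and have no value here, whereas all 5 genes of the death receptor group were listed. The rank therefore holds over listed members only. BTG2 (chromosome 1, 203305491 to 203309602), an antiproliferative protein that recruits the CCR4-NOT deadenylase, went from normalized read counts of 335 and 369 to 1085 and 1119.9 (log2 fold change 1.64 ± 0.082, 95% interval 1.47 to 1.82, adjusted p = 5.36e-12). ZMAT3, a zinc finger protein that binds RNA and affects splicing, had 671 and 766 with shctrl against 2159.9 and 1997 with shUSP2-AS1 (log2 fold change 1.53 ± 0.073, adjusted p = 2.93e-12). The groups stood far apart in both genes, with folds of 3.13 and 2.89. BTG1, the paralog of BTG2, had 932 and 822 with shctrl against 1717 and 1719 with shUSP2-AS1, a log2 fold change of 0.97 ± 0.069 (adjusted p = 6.30e-10) just under the 2-fold limit. The BTG1 value was 1.03 with upper quartile scaling and 1.06 without shctrl replicate 1, which put it among the called genes, and 10.4% of its exon bases are also annotated to LINC01619. Per kb, BTG2 was less abundant than BTG1 with shctrl (log2 ratios −0.66 and −0.34) and more abundant with shUSP2-AS1 (0.15 and 0.20). This order rests on the deposited gene lengths of 2757 bases (BTG2) and 4855 bases (BTG1). By normalized read count, BTG1 was above BTG2 in every library. PLK3, a polo-like kinase of the stress response, went from 349.8 and 371 to 676 and 699 (log2 fold change 0.93 ± 0.087, adjusted p = 2.10e-08), whereas PLK2, CCNG2 and FBXW7 of the same role were not listed.

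Of the secreted signals, GDF15, a stress-induced cytokine of the TGF-beta superfamily, had normalized read counts of 2691 and 2656 with shctrl against 3836 and 3759 with shUSP2-AS1 (log2 fold change 0.51 ± 0.051, adjusted p = 5.48e-08). GDF15 was abundant per kb of transcript in both groups, at 1281 and 1819.7, and its 2 knockdown libraries lay above both controls. KITLG, the ligand of the receptor KIT, and ZNF79, a zinc finger gene, were not listed.

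**Figure D4:**
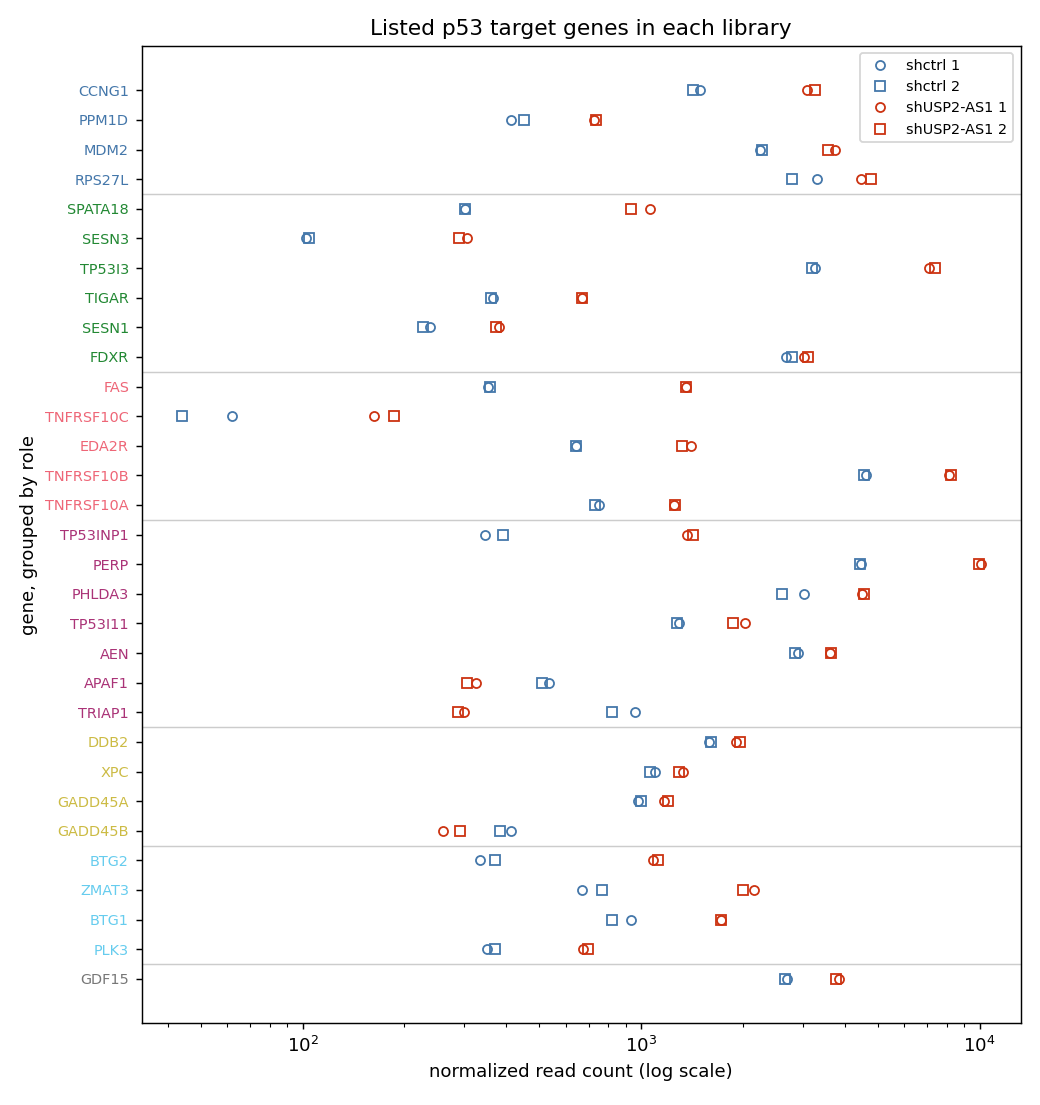
Normalized read count of each listed p53 target gene in each library, on a log axis, with genes grouped by role (colors of the names as in the plot of log2 fold changes). Blue marks are shctrl and red marks shUSP2-AS1, circles replicate 1 and squares replicate 2. Red lies to the right of blue for all genes but APAF1, TRIAP1 and GADD45B.

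The presence of a p53 consensus site within 5000 bases was set beside these changes. All 7 members with a site rose, 4 of them (CCNG1, EDA2R, PERP and ZMAT3) past the 2-fold limit, and their median log2 fold change was 1.08. Of all tested genes, 50.6% rose and 16.1% were called higher. DDB2, GADD45A and GDF15 hold sites of the same length and allowance and had log2 fold changes of 0.28, 0.26 and 0.51. The 24 members without a site had a median of 0.76, with 21 that rose and 3 that fell. FAS, TP53INP1 and SPATA18, the members with the highest log2 fold changes, held no such letters in this window. Among the other listed genes, 72 held a site, and 44 of these rose and 28 fell, with a median of 0.44 and 12 (16.7%) called higher, close to the share over all tested genes.

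The wider p53 pathway was followed in a second list of 42 genes, of which 24 were listed in the table. Of its further p53 targets, 16 of 20 were listed, 13 rose and 3 fell, with a median log2 fold change of 0.58. Over all tested genes, 50.6% rose and the median was 0.19, and every listed gene had already passed the authors' test. CDKN1A, which encodes the cyclin-dependent kinase inhibitor p21, had normalized read counts of 7436 and 6989 with shctrl against 20618 and 20765 with shUSP2-AS1 (log2 fold change 1.52 ± 0.049, adjusted p = 2.50e-14). BBC3 (PUMA), a BH3-only activator of apoptosis, went from 439 and 376 to 1124 and 1274 (log2 fold change 1.56 ± 0.089, adjusted p = 3.56e-11). These log2 fold changes were within the range of the members. CD82, a tetraspanin that limits metastasis, went from 159 and 129.7 to 693 and 559 (log2 fold change 2.11 ± 0.13, adjusted p = 7.70e-11). IGFBP3, which binds insulin-like growth factors, was the further target called lower, from 4194 and 3934 to 1867 and 1925 (log2 fold change −1.10 ± 0.055, adjusted p = 5.21e-12).

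Of 22 regulators and cofactors of p53, 8 were listed, of which 2 rose and 6 fell, where 49.4% of all tested genes fell. The median log2 fold change of the 8 was −0.31, and 1 of them was called lower, where 13.5% of all tested genes were. TP63, the p53 family member of basal epithelia, was low and rose, with normalized read counts of 46.4 and 33.0 with shctrl against 111 and 127 with shUSP2-AS1 (log2 fold change 1.58 ± 0.22, adjusted p = 3.66e-06). TP53RK, a kinase reported to phosphorylate p53, had 296 and 267 with shctrl against 110.4 and 172 with shUSP2-AS1. Its log2 fold change of −1.02 ± 0.17 (adjusted p = 1.95e-05) passed the 2-fold limit by little and was −1.34 to −0.71 with 1 library left out. Without shctrl replicate 1 or shUSP2-AS1 replicate 1, and with upper quartile scaling, edgeR or DESeq2, TP53RK was not called. The checkpoint kinase gene CHEK1 (log2 fold change −0.78, adjusted p = 3.32e-07) and USP7, which encodes a deubiquitinase of MDM2 and p53 (−0.54, adjusted p = 3.26e-08), fell as well.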

How the data were processed

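RNA-seq was performed on A549 cells infected with shctrl or shUSP2-AS1 lentiviruses, with 2 biological replicates per group, and p-values measure the spread between these samples. Poly(A) RNA was sequenced, and the submitters' processing notes name HISAT2 (version 2.0.5), featureCounts (version 1.5.0-p3), DESeq2 (version 1.20.0) and hg38. The deposited signal is, for every gene in every library, the read count over the size factor of that library. The deposited columns with the authors' own log2 fold change and p-value were not used, except that the adjusted p-value was below 0.05 for all 6828 genes. The library columns carry other names than the samples: those starting with scr were read as shctrl and the remaining ones as shUSP2-AS1, from the title of the table, with the replicate from the number, and there were 0 columns of other samples. Whether counting used strand is not given in the sources used here.

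As planned for normalized values, log2(value + 1) of the 6812 genes averaging at least 10 was fitted with limma (version 3.58.1, R version 4.3.3; lmFit, eBayes with a trend), with Benjamini-Hochberg adjustment over all of them. Passed means an adjusted p below 0.05, and called also a log2 fold change of 1 or more in size. Fold changes are on the log2(value + 1) scale, which understates those of low genes. Intervals are 95% intervals of the fit. Levels per kb, including those written per kb of transcript, are values divided by the deposited gene length. That length need not match the transcripts present, and the order of genes per kb depends on it. Whole reads (100% of values, within 0.02 of a read) were recovered as 0.966, 1.10, 1.05 and 0.880 per read in the 4 libraries, and on these edgeR (version 4.0.16) called 2022 genes and DESeq2 (version 1.42.0) 2021. The fit was tested on simulated counts.

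Members, roles, gene lists and alternatives were chosen with earlier results of these data known. All listed members were named, with their libraries where called or among the 2 largest or 2 smallest other changes of a role, as were called genes of the second list and USP2-AS1, and some genes of this rule are not reported here. Genes named beyond this rule (ACTA2, ANKS1B, CHEK1, CPM, TNFRSF10A-AS1, USP7) were chosen after their values were seen. Sites and overlaps were taken from hg38 and GENCODE release 44, which held 6717 of the listed identifiers. Of the listed members, 16 share exon bases with another gene, 5 of them at least 10%. Smaller overlaps were named above for only some members. On the opposite strand, TNFRSF10A shares 7.65% of its exon bases with TNFRSF10A-AS1 (log2 fold change 1.03). MDM2 shares 1.6% with CPM (1.88) and 9.45% with a long noncoding RNA that was not listed. The part of such reads in the values was not tested.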

Additional observations from a re-analysis of the deposited data

How the results depend on the processing

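The replicate numbers share only a number: across 6812 genes, the replicate differences of the groups correlated at −0.04, and with 2 pairs no pairing was assumed. With the replicate block, 2020 genes, 12 p53 target genes and 8 further p53 pathway genes were called, as without it. Without a fold change threshold 6811 genes, all 31 members and all 24 pathway genes passed. With 1 library left out at a time (the lone sample assumed to vary like the other group), 1939 to 2030 genes, 12 to 13 members and 7 to 9 pathway genes were called, and the log2 fold change of USP2-AS1 was −2.99 (without shUSP2-AS1 replicate 2) to −1.79 (without shUSP2-AS1 replicate 1). Other scalings, filters, pseudocount and count tests gave 11 to 13 called members. EDA2R was lost under RLE scaling, and BTG1 was gained under upper quartile scaling and without shctrl replicate 1. Upper quartile scaling called 6 pathway genes higher and 1 lower, against 6 and 2, with TP53RK lost. SUSD6 was gained without shUSP2-AS1 replicate 2. Of the log2 fold changes of members under these alternatives, 402 kept their direction and side of the adjusted p threshold and 1, FDXR under RLE scaling (0.049), did not pass. The cause was not tested. Genes with few reads, such as USP2-AS1, TNFRSF10C and TP63, had the widest intervals of those named.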
